A study of Mus musculus with 18 samples.

Results

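The circadian clock genes described here are 10 mouse genes: the activators Clock and Arntl, the repressors Per1, Per2, Per3, Cry1 and Cry2, and the output transcription factors Dbp, Hlf and Tef. Described are the CpG sites that lie in these gene bodies or within 5 kb of either end on the build GRCm38 and that had at least 10 reads in both pools of a tissue. There were 1243 such sites of 1876099 in gonadal adipose tissue, 1039 of 1569349 in hypothalamus and 1064 of 1628817 in liver, with a median of 172 reads per site in the BPA and 156 in the control adipose pool, 99 in the BPA and 97 in the control hypothalamus pool, and 122 in the BPA and 132 in the control liver pool. The series compares male C57BL/6 offspring at 3 weeks of age whose dams received bisphenol A (BPA), a building block of plastics that binds oestrogen receptors weakly, with offspring of dams given vehicle. BPA was dissolved in corn oil and gavaged daily, 5 mg per kg of body weight, from 1 to 20 days after conception, and control dams received corn oil alone. The offspring came from 4 BPA litters and 3 control litters and were kept under 12 h of light and 12 h of dark. Methylation was read by reduced representation bisulfite sequencing, which cuts DNA at CCGG with MspI and reads single CpGs in CpG-rich fragments, in 3 samples for each treatment and tissue. Levels of single sites below are the authors' values for pools of 3 samples, and those of genes, windows and blocks are sums of these reads. None has an error between animals, and intervals are 95% intervals for counting error only. Pool number 1 was read as BPA and number 0 as control because a label lists control ahead of BPA, and if this were reversed every direction between BPA and control would turn. The sources used here do not give the time of day at which tissue was collected.

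In the mammalian clock, the CLOCK and ARNTL (BMAL1) proteins pair and bind E-box elements to switch on the Per and Cry genes, whose proteins return to the nucleus and repress that pair. The same loop drives Dbp, Hlf and Tef, which encode related PAR bZIP factors that bind D-box elements in clock output genes and in Per genes. The hypothalamus holds the central pacemaker, while liver and fat run peripheral clocks that pace metabolism.

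The canonical E-box contains a CpG, so its methylation can be read directly where a restriction fragment covers it. Each RefSeq promoter window, 250 bases before to 50 bases after a transcription start, was searched on both strands for 4 motifs: the E-box CACGTG, its variant CACGTT, and the D-boxes TTATGTAA and TTATGCAA. Matches of different motifs did not overlap each other in the windows of the clock genes. The E-box was found in 4 of the 14 windows of the 9 genes with an entry and in 7.15% of all 32851 windows, and CACGTT was found in 2 of the 14 and in 4.68% of all. TTATGTAA and TTATGCAA each occurred in 1 of the 14 windows, against 0.938% and 0.743% of all windows. Per2 had no entry in the promoter table. The 250 bases upstream of the start are shown 5′ to 3′ for the windows with a match (RefSeq, GRCm38.p6), because their CpGs are the ones the motif results turn on, and capitals mark the motifs on either strand. They lie at chr11:69098699-69098948 on the plus strand for Per1, chr4:151044666-151044915 on the minus strand for Per3, chr10:85185055-85185304 on the minus strand for Cry1, chr2:92434070-92434319 on the minus strand for Cry2, and chr15:81802423-81802672 and chr15:81811164-81811413 on the plus strand for the starts 1 and 2 of Tef.
Per1: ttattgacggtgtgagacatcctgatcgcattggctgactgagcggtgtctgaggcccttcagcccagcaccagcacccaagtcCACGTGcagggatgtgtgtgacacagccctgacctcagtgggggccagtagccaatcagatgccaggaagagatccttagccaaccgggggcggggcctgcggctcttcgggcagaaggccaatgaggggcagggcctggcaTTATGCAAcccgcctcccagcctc
Per3: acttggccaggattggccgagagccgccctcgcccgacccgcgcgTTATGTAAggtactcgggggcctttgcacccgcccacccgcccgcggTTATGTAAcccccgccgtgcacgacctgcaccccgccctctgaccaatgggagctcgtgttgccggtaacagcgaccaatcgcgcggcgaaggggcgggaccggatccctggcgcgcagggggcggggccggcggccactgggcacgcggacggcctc
Cry1: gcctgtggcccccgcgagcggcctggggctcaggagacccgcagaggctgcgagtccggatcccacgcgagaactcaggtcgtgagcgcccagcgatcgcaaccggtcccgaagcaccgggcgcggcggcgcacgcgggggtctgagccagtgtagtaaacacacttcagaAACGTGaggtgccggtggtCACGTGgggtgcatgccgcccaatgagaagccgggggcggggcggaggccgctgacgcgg
Cry2: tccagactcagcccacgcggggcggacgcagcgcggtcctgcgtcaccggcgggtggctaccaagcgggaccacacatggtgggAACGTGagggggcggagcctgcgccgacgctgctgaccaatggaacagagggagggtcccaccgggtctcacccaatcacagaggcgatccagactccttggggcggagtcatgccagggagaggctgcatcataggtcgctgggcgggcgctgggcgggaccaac
Tef start 1: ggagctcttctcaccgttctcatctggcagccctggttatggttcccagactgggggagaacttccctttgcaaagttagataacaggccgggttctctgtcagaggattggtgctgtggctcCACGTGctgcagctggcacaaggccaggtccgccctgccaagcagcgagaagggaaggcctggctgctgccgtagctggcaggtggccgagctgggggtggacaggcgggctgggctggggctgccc
Tef start 2: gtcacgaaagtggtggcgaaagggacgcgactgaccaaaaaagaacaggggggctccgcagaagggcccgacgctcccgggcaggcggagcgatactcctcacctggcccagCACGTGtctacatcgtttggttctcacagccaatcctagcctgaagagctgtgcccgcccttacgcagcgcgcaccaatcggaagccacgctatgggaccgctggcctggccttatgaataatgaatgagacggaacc

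The E-box CpGs that could be read had few methylated reads in BPA and control pools. At the Per1 E-box, which begins 166 bases before the start, 3 of 303 reads over the 6 pools were methylated, or 0.990% (exact Clopper-Pearson interval 0.205 to 2.87%). In adipose these were 1 of 96 reads in the BPA pool and 0 of 81 in the control pool, where 0 reads allow a level of up to 3.70%, taking 3 reads as the limit for a count of 0 here and below. The other pools were shallower at this site, with 0 of 16 reads in BPA and 0 of 22 in control hypothalamus, which allow up to 18.8% (BPA) and 13.6% (control), and with 0 of 51 in BPA and 2 of 37 in control liver (5.41%, exact upper limit 18.2%). At the E-box of Tef start 1, 127 bases upstream, 2 of 841 reads were methylated (0.238%, 0.0288 to 0.856%). At the E-box of Tef start 2, 138 bases upstream, 1 of 572 reads was methylated (0.175%, 0.00443 to 0.970%), with 0 of 134 reads in the BPA adipose pool, which allows up to 2.24%, and 0 of 139 in the control adipose pool, which allows up to 2.16%. The CACGTT element of Cry2, 166 bases upstream, had 5 of 218 methylated reads (2.29%, 0.749 to 5.27%). No deposited row covered the E-box or the CACGTT element of Cry1, and the D-boxes of Per1 and Per3 contain no CpG.

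The whole promoter windows were also low. In adipose, 10 of the 14 windows, from 8 genes, held a tested site. Their summed levels ranged from 0 to 1.02% in the BPA pool and from 0 to 1.37% in the control pool. In hypothalamus they reached 1.97% in the BPA pool and 1.67% in the control pool, and in liver 1.83% in the BPA pool and 3.16% in the control pool, the maxima all belonging to Cry2 except the control maximum in adipose, which was that of Tef start 1. The highest single site in any window was at 9.52%, in Cry2 in the control liver pool. The windows of all 3 Clock starts and of the second Per1 start held no tested site.

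Low methylation extended over the surrounding kilobase. Within 1 kb of a start, 483 of 489 sites of the 9 genes were under 10% in the BPA adipose pool and 481 in the control adipose pool. In hypothalamus 433 of 435 were under 10% in the BPA pool and 434 in the control pool, and in liver 412 of 414 in the BPA pool and 411 in the control pool. Distances of clock gene sites, here and below, are to the gene's own starts, and those of all sites are to the start of any gene. Over all genes with a window, 88.5% of sites within 1 kb of a start in the BPA adipose pool and 88.3% in the control adipose pool were under 10%. Methylated members therefore lay mainly farther away, inside the genes and in their flanks, as the plot of level against distance from the start shows.

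**Figure D1:**
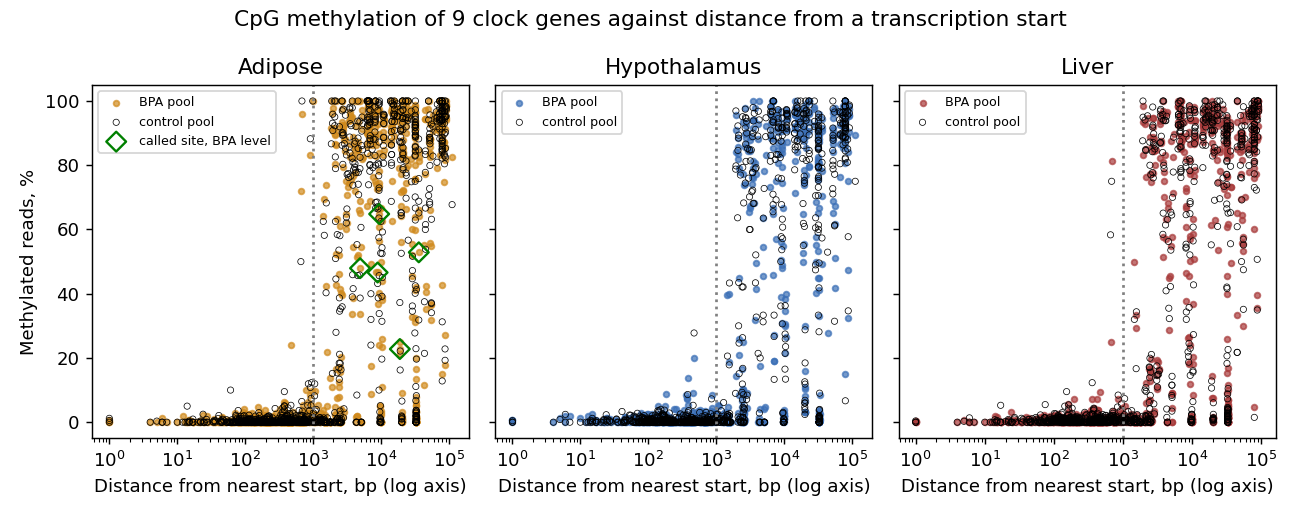
Methylation level in percent of reads for each tested CpG of 9 clock genes against its distance in bp from the nearest transcription start (log axis, a distance of 0 drawn at 1), with filled points for BPA pools and open points for control pools. Left of the dotted line at 1 kb nearly all points sit under 10%, and the 5 called adipose sites (diamonds) all lie to its right.

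The 10 genes differed widely in overall level, and within each tissue the BPA and control pools lay close together. Levels here are methylated reads as a share of all reads summed over a gene's tested sites, so that a read counts at each CpG it covers, and they carry no test. Among the activators, Clock (chr5:76209868-76305603) had 51.2% in the BPA adipose pool and 50.3% in the control adipose pool, 41.2% in BPA and 40.5% in control hypothalamus, and 46.2% in BPA and 45.4% in control liver. With each CpG weighted equally the order of the tissues reversed. Clock then had 48.3% in BPA and 47.8% in control adipose, 55.6% in BPA and 54.6% in control hypothalamus, and 52.5% in BPA and 52.8% in control liver. The tested CpGs were not the same in each tissue, with 77 Clock sites in adipose and 53 each in hypothalamus and liver. Of these, 36 in adipose and 21 in each other tissue lay within 1 kb of a start. Gene levels of different tissues are therefore not compared at the same sites. Arntl (chr7:113178471-113314126) had 42.0% in BPA and 41.7% in control adipose, 39.5% in BPA and 37.1% in control hypothalamus, and 45.2% in BPA and 44.4% in control liver. All 3 tissues thus held these activators at intermediate levels, which join unmethylated sites near the starts with methylated sites in the gene bodies: 36 of the 77 Clock sites were under 10% in the BPA adipose pool and 38 were over 80%.

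The repressors spanned the range from nearly unmethylated to intermediate. Per3 (chr4:150997018-151044707) had the highest levels of the Per genes, with 49.6% in BPA and 47.8% in control adipose, 45.0% in BPA and 44.4% in control hypothalamus, and 47.9% in BPA and 48.2% in control liver. Per1 (chr11:69095108-69109965), which light induces rapidly in the pacemaker, had 35.1% in BPA and 33.4% in control adipose, 30.8% in BPA and 28.0% in control hypothalamus, and 29.8% in BPA and 31.2% in control liver. Per2 (chr1:91415977-91459351) was lower, at 14.2% in BPA and 13.9% in control adipose, 8.30% in BPA and 8.84% in control hypothalamus, and 11.0% in BPA and 9.67% in control liver. The Per genes thus had the same order, Per3 above Per1 above Per2, in all 6 pools. Cry1 (chr10:85131700-85185054) stayed between 1.47% and 3.16% in the 6 pools, with 93 of its 105 adipose sites under 10% in both pools, and between 5.87% and 11.2% with each CpG weighted equally. Cry2 (chr2:92403646-92434085) had 16.8% in BPA and 19.9% in control adipose, 8.94% in BPA and 9.06% in control hypothalamus, and 19.9% in BPA and 17.2% in control liver.

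Of the output factors, Hlf (chr11:90336535-90390917) had 41.4% in BPA and 41.0% in control adipose, 39.8% in BPA and 41.2% in control hypothalamus, and 33.1% in BPA and 32.6% in control liver. Dbp (chr7:45705100-45710203) had 33.1% in BPA and 32.5% in control adipose, 29.4% in BPA and 28.8% in control hypothalamus, and 26.5% in BPA and 27.2% in control liver. Tef (chr15:81802673-81826863) was nearly unmethylated, between 1.28% and 2.72%, with 121 of 130 adipose sites under 10% in the BPA pool and 122 in the control pool. Over all 10 genes and 3 tissues the largest difference, BPA minus control, was -3.07 points, at Cry2 in adipose. With each CpG weighted equally, the Cry2 difference was -0.872 points (22.6% in BPA and 23.5% in control adipose), and the largest was 1.09 points at Hlf in liver (34.1% in BPA and 33.0% in control). Most genes share their window with a neighbour, such as Sphk2 and Car11 at Dbp, Mapk8ip1 at Cry2 and Hes6 at Per2, and Hlf alone had none.

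**Figure D2:**
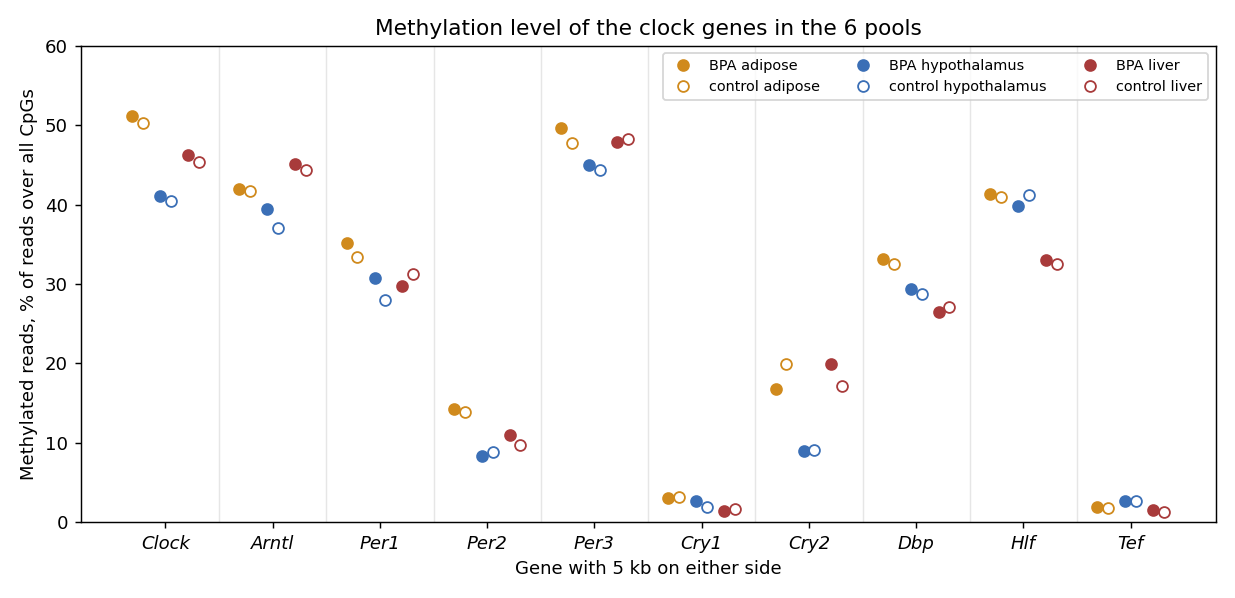
Methylated reads in percent of all reads over the tested CpGs of each clock gene with 5 kb on either side, with filled points for the BPA pool and open points for the control pool of each tissue. Cry1 and Tef lie at or under 3.16% throughout and Clock and Per3 between 40.5% and 51.2%, and the widest gap between a BPA and a control point is at Cry2 in adipose.

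BPA and control pools were compared at each CpG to ask whether exposure before birth left a different methylation level at the clock genes. A site was called when Fisher's exact test on the pooled reads, two-sided and adjusted by Benjamini-Hochberg over all tested sites of the tissue, reached an adjusted p under 0.05 and the pools were 5 or more percentage points apart. In adipose, 5 of the 1243 sites were called (0.402%), 2 higher and 3 lower in BPA, against a background of 0.534% of all tested sites (0.252% higher and 0.283% lower). The share of clock gene sites is thus near the background, and 85 of them (6.84%) had an unadjusted p under 0.05, against 10.1% of all adipose sites. The 5 sites lie at Per3, Dbp and Hlf. In hypothalamus 0 of 1039 sites were called by Fisher's exact test, against a background of 0.00573%, and 38 sites (3.66%) had an unadjusted p under 0.05, as did 3.41% of all sites. In liver 0 of 1064 were called, against a background of 0.0257%, and 24 (2.26%) had an unadjusted p under 0.05, against 4.21% of all sites. By the authors' deposited credible difference of at least 5 points, 18 adipose sites of the clock genes differed (1.45%, against 2.99% of all tested sites), 2 hypothalamus sites (0.192%, against 0.858%) and 3 liver sites (0.282%, against 0.995%), so that their shares were below those of all sites.

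At Per3, 1 site in the gene body (chr4:151008582), 36083 bp from the start, was higher in BPA adipose. It had 52.9% of 208 reads methylated in the BPA pool and 31.8% of 154 in the control pool, a difference of 21.1 points (Newcombe interval 10.8 to 30.6, Fisher's exact test, Benjamini-Hochberg adjusted p = 0.0255). In hypothalamus the same site had 49.1% in the BPA pool and 57.4% in the control pool, and in liver 49.6% in the BPA pool and 55.6% in the control pool. The control adipose pool was therefore the lowest of the 6 pools at this site.

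At Hlf, a site in the gene body (chr11:90371939), 18978 bp from the start, was lower in BPA adipose. It had 22.8% of 360 reads methylated in the BPA pool and 37.3% of 357 in the control pool, a difference of -14.5 points (-21.0 to -7.78, Fisher's exact test, Benjamini-Hochberg adjusted p = 0.0163). Both adipose pools were below the other tissues at this site, which had 64.8% in the BPA and 68.1% in the control hypothalamus pool and 61.3% in BPA and 55.2% in control liver.

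The Dbp window held the other 3 sites. The first (chr7:45710170) lies near the end of the gene, where Sphk2, a sphingosine kinase gene, overlaps it, and had 47.9% of 73 reads in the BPA adipose pool and 82.5% of 57 in the control adipose pool. Its difference of -34.5 points (-48.0 to -18.2, Fisher's exact test, Benjamini-Hochberg adjusted p = 0.0217) was the largest of the 5 and rested on the fewest reads. The second (chr7:45714173), 3970 bp beyond the gene and inside Sphk2, had 46.6% of 221 reads in BPA and 67.1% of 158 in control adipose, a difference of -20.5 points (-29.9 to -10.4, adjusted p = 0.0303 by the same Fisher's exact test). The next (chr7:45714660), 4457 bp beyond the gene and also inside Sphk2, went the other way, with 64.8% of 253 reads in BPA and 45.6% of 206 in control adipose, a difference of 19.2 points (10.1 to 27.9, Fisher's exact test, Benjamini-Hochberg adjusted p = 0.0203). The last 2 therefore differed in direction within Sphk2, and neither is in the body of Dbp. In the other tissues the first site had few reads, with 45.5% of 11 in BPA and 33.3% of 15 in control hypothalamus and 87.5% of 24 in BPA and 65.4% of 26 in control liver. The second was methylated in 42 of 83 reads in BPA and 43 of 86 in control hypothalamus, and at 18.5% in BPA and 20.5% in control liver. The last had 49.0% in BPA and 63.2% in control hypothalamus and 23.9% in BPA and 23.0% in control liver, so that both liver pools were below both adipose pools at the second and the last site.

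**Figure D3:**
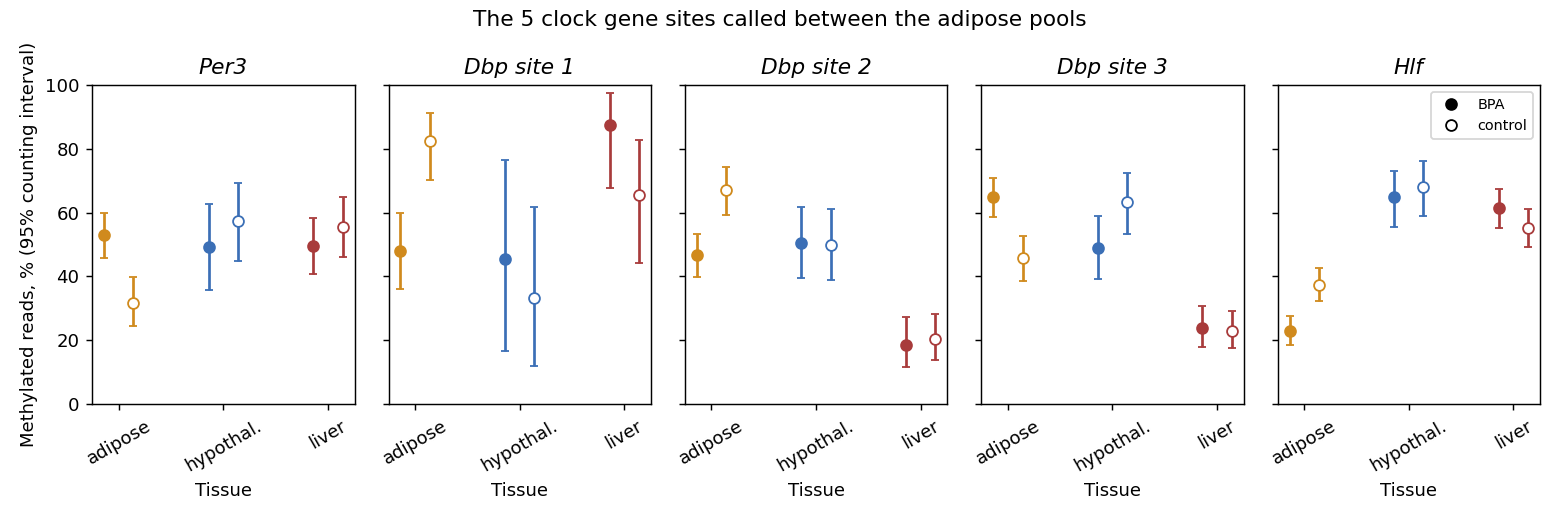
Methylation level in percent of reads with 95% counting intervals at the 5 clock gene CpGs called between the adipose pools, in BPA (filled) and control (open) pools of each tissue, the Dbp sites numbered along the chromosome. The adipose intervals do not overlap at any of the 5 sites, with BPA above control at Per3 and Dbp site 3 and below it at Dbp sites 1 and 2 and Hlf. The sites were called on these same adipose reads, so the gaps between the intervals are a description only.

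Neighbouring CpGs in adipose gave mixed directions. Within 250 bp of the Per3 site, 1 of 5 tested neighbours had a difference of the same sign, and their differences ranged from -3.85 to 5.47 points. Of the neighbours of the 3 Dbp sites, 1 of 1, 1 of 5 and 4 of 4 had the same sign, with a range of -6.48 to 24.9 points around the second, and at Hlf 1 of 2 had it. Only 1 of these neighbours, at Hlf, had an unadjusted Fisher p under 0.05, and at -8.19 points it had the same sign as the called site. When the chi-square statistic was divided by 1.91, the factor by which differences between the adipose pools exceeded counting error over all sites, none of the 5 sites was called, and 0.00208% of all adipose sites were (Benjamini-Hochberg adjusted p = 1 for each).

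The log odds ratios of BPA against control were also compared between tissues at each site (Wald test, adjusted over all sites). None of the clock gene sites passed with adipose against hypothalamus, adipose against liver or hypothalamus against liver, where 0.0266%, 0.0493% and 0.00375% of all sites passed. At an unadjusted p under 0.05 there were 41 of 1036 clock gene sites (3.96%, against 5.39% of all sites) with adipose against hypothalamus, 29 of 1061 (2.73%, against 6.54%) with adipose against liver and 26 of 987 (2.63%, against 3.66%) with hypothalamus against liver. The smallest adjusted p was 0.0993, for the Hlf site between adipose and liver, followed by 0.145 for the Dbp site at chr7:45714660 between adipose and hypothalamus (Wald test, Benjamini-Hochberg). No difference in response between tissues passed this test at the 5 sites.

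The remaining 7 genes had no called site between BPA and control, and their sites with the smallest p give the size of what was seen. In adipose, Arntl had a gene-body site (chr7:113293737) at 85.2% of 419 reads in BPA and 93.0% of 371 in control (Fisher's exact test, Benjamini-Hochberg adjusted p = 0.0733). Cry2 had a site (chr2:92423703) at 38.1% of 181 reads in BPA and 54.3% of 208 in control (adjusted p = 0.114, same Fisher's exact test). Cry1 had a site 97 bp from its start (chr10:85184957) at 4.20% of 238 reads in BPA and 0 of 224 in control (adjusted p = 0.121, same Fisher's exact test). Per2 had a site (chr1:91433637) at 96.9% of 550 reads in BPA and 92.2% of 472 in control (adjusted p = 0.0949, same Fisher's exact test). The smallest adjusted p of Clock, Per1 and Tef in adipose was 0.188, 0.165 and 0.339 by Fisher's exact test with Benjamini-Hochberg adjustment. These 7 genes thus had differences in both directions, none past the threshold. In hypothalamus the smallest adjusted p was 0.699, at Clock (chr5:76223962), with 100% of 86 reads in BPA and 87.0% of 77 in control by Fisher's exact test. In liver it was 0.580, at Per1 (chr11:69104246), with 83.2% of 179 reads in BPA and 93.9% of 196 in control by Fisher's exact test.

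None of the called sites lay near a start of its own gene. Within 1 kb of a start 0 of 489 adipose sites of the 9 genes with a known start were called between BPA and control, and farther away 5 of 592 (0.845%), against 0.156% near and 0.667% far over all sites. Clock gene sites far from their own start can lie near the start of a neighbour, so the far shares are of unlike sets. Per site, the median absolute difference between the pools was 0.886 points in adipose, 0.950 in hypothalamus and 0.819 in liver for the clock genes, and 1.91, 1.79 and 1.77 points over all sites. The clock genes had more of their sites near a start, with 489 near and 592 far in adipose, against 486652 near and 1389447 far over all sites. These medians were not split by distance from a start.

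Markers of other cells in fat were read in the same pools. Over 4 leukocyte genes (Ptprc, Cd79a, Laptm5 and Cd52) gene levels ranged from 16.9% to 76.8% in the BPA adipose pool and from 23.0% to 77.1% in the control adipose pool. Over 4 endothelial genes they ranged from 22.1% to 67.6% in the BPA and from 21.9% to 66.1% in the control adipose pool. Over 5 adipocyte genes they ranged from 54.5% to 86.2% in the BPA and from 52.9% to 86.5% in the control adipose pool. Their part in the adipose differences was not tested. In bulk tissue a different share of cells with a methylated site and a different level within 1 cell type cannot be told apart.

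Of 21 other genes of the clock pathway (partners and nuclear receptors, kinases, ubiquitin ligases and output genes), 4 of 2420 adipose sites were called between BPA and control (0.165%), 3 higher and 1 lower in BPA, against the background of 0.534% (0.252% higher and 0.283% lower), and 209 (8.64%) had an unadjusted p under 0.05, against 10.1%. At Timeless, whose protein binds clock repressors and replication forks, a site (chr10:128239646) had 98.8% of 161 reads in BPA and 84.2% of 114 in control adipose (Fisher's exact test, Benjamini-Hochberg adjusted p = 0.00539). Csnk1e, a kinase that phosphorylates PER proteins, had 1 site higher (chr15:79443119, 95.4% of 175 reads in BPA and 81.0% of 116 in control) and 1 lower (chr15:79433283, 16.3% of 43 in BPA and 59.4% of 32 in control). The fourth site (chr11:98767387), with 60.3% of 234 reads in BPA and 37.3% of 193 in control, lies 545 bp outside Nr1d1, the REV-ERB alpha repressor, and inside its overlapping neighbour Thra. With the statistic divided by the excess over counting error, none of these 4 sites was called, while 0.00208% of all adipose sites were. None of 2033 hypothalamus sites and none of 2158 liver sites of these 21 genes was called by Fisher's exact test. At an unadjusted p under 0.05 there were 56 in hypothalamus (2.75%, against 3.41% of all sites) and 91 in liver (4.22%, against 4.21%).

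Far more clock gene sites were called between tissues than between treatments. In the control pools, 84 of 1046 clock gene sites (8.03%) were called by Fisher's exact test between adipose and hypothalamus, 37 higher and 47 lower in adipose, against a background of 12.9% of all sites (3.79% higher and 9.08% lower). Between adipose and liver 93 of 1065 (8.73%) were called, 62 higher and 31 lower in adipose, against 16.5% (8.05% higher and 8.42% lower). Between hypothalamus and liver 102 of 995 (10.3%) were called, 68 higher and 34 lower in hypothalamus, against 16.9% (11.2% higher and 5.72% lower). The shares for the clock genes were thus below the background in all 3 pairs, which share their pools pairwise. Within 1 kb of a start the calls were 3 of 436, 3 of 415 and 1 of 406, next to 4.45%, 5.15% and 5.58% of all sites so near a start. Farther away they were 76 of 472 (16.1%), 84 of 502 (16.7%) and 97 of 452 (21.5%), next to 16%, 20.4% and 21% of all distant sites. The sets are unlike, because distant clock gene sites are those far from their own start and can lie near a neighbour's start. At Dbp, 58.5% of distant sites were under 10% in the control adipose pool, against 17.1% of all distant sites.

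The BPA pools, made from other samples, gave a second reading of the tissue differences, with 65 of 1060 clock gene sites called between adipose and hypothalamus (6.13%, background 13.4%), 92 of 1069 between adipose and liver (8.61%, background 15.8%) and 100 of 991 between hypothalamus and liver (10.1%, background 16.7%). Of the sites called in control pools, 76 of 84 had the same direction between adipose and hypothalamus in the BPA pools, 92 of 93 between adipose and liver, and 100 of 101 between hypothalamus and liver. Over all called sites the same direction was seen for 96.3%, 95.3% and 98%. Dividing the statistic by the excess over counting error in each pair (5.54, 7.28 and 7.15, which the tissue differences themselves enter) left 2 called clock gene sites between adipose and hypothalamus in the control pools (0.191%, against 0.914% of all sites), 15 between adipose and liver (1.41%, against 1.29%) and 8 between hypothalamus and liver (0.804%, against 1.3%). With that division the share of the clock genes was therefore no longer below the background between adipose and liver. The hepatocyte markers followed their label, with the lowest level in liver for 7 of 7 genes in both the BPA and the control pools. Of the adipocyte genes 3 of 5 were lowest in adipose, and of the neuron genes 3 of 5 in hypothalamus. The part of cell composition in the tissue differences was not tested.

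The calls were uneven over the genes. Hlf had 19 of 96 sites called in control pools between adipose and hypothalamus (19.8%), 28 of 98 between adipose and liver (28.6%) and 30 of 92 between hypothalamus and liver (32.6%). Cry2 had 12 of 74, 13 of 70 and 13 of 70, Dbp 14 of 167, 21 of 176 and 22 of 158, and Arntl 15 of 128, 17 of 126 and 11 of 115. Clock, Per1 and Tef had between 0 and 7 each, and Cry1 had no site called between any tissues in the control pools by Fisher's exact test.

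Many called sites lay in runs of at least 3 that differed in the same direction in the control pools with gaps of at most 1 kb. The runs held 51 of the 84 sites called between adipose and hypothalamus, 64 of the 93 between adipose and liver and 68 of the 102 between hypothalamus and liver. The share of called sites in such runs was not computed over all genes, so these counts have no background and describe the clock genes only. Overlapping runs were joined into 19 blocks, of which Clock, Per1 and Cry1 had none. These were chosen from the control values, so their control levels are a description, while the BPA levels did not enter the choice.

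Among these blocks, liver stood farthest apart in Hlf, in 14 CpGs at chr11:90387567-90388991, 1926 to 3350 bp downstream of the start. In the BPA pools 51.0% of reads were methylated in adipose, 48.9% in hypothalamus and 11.1% in liver, and in the control pools 55.6% in adipose, 49.6% in hypothalamus and 10.9% in liver. No site of the block exceeded 19.4% in the BPA liver pool or 17.5% in the control liver pool. In the BPA pools liver was called lower than adipose at 14 of the 14 sites by Fisher's exact test, and lower than hypothalamus at 9. The control counts, 14 and 12, follow from the choice of the block. At chr11:90387634 the BPA pools had 73.2% of 127 reads in adipose, 88.7% of 62 in hypothalamus and 16.5% of 121 in liver, and the control pools 77.4% of 164 in adipose, 84.8% of 46 in hypothalamus and 15.0% of 127 in liver. The hypothalamus minus liver difference there was 69.8 points in control pools (54.9 to 79.1, Fisher's exact test, Benjamini-Hochberg adjusted p = 1.19e-15), the largest of any clock gene site.

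Other parts of Hlf had other patterns. At chr11:90371684-90371939, the block that holds the called BPA site, adipose was lowest in summed reads, with 22.9% in BPA and 28.7% in control adipose, 59.6% in BPA and 63.2% in control hypothalamus and 37.0% in BPA and 35.9% in control liver. The median over its 3 CpGs was instead lowest in liver, at 14.4% in BPA and 12.8% in control. Adipose had a median of 22.8% in BPA and 22.2% in control. At chr11:90381527-90381645 hypothalamus was highest, with 67.3% in BPA and 69.1% in control adipose, 86.8% in BPA and 92.3% in control hypothalamus, and 63.5% in BPA and 66.3% in control liver. The block at chr11:90358148-90359330 with 13 CpGs was lowest in liver in summed reads, with 57.9% in BPA and 57.1% in control adipose, 61.3% in BPA and 63.5% in control hypothalamus, and 41.9% in BPA and 39.8% in control liver. The median over its CpGs was instead lowest in adipose, at 64.0% in BPA and 66.7% in control. Liver had a median of 70.7% in BPA and 67.9% in control.

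**Figure D4:**
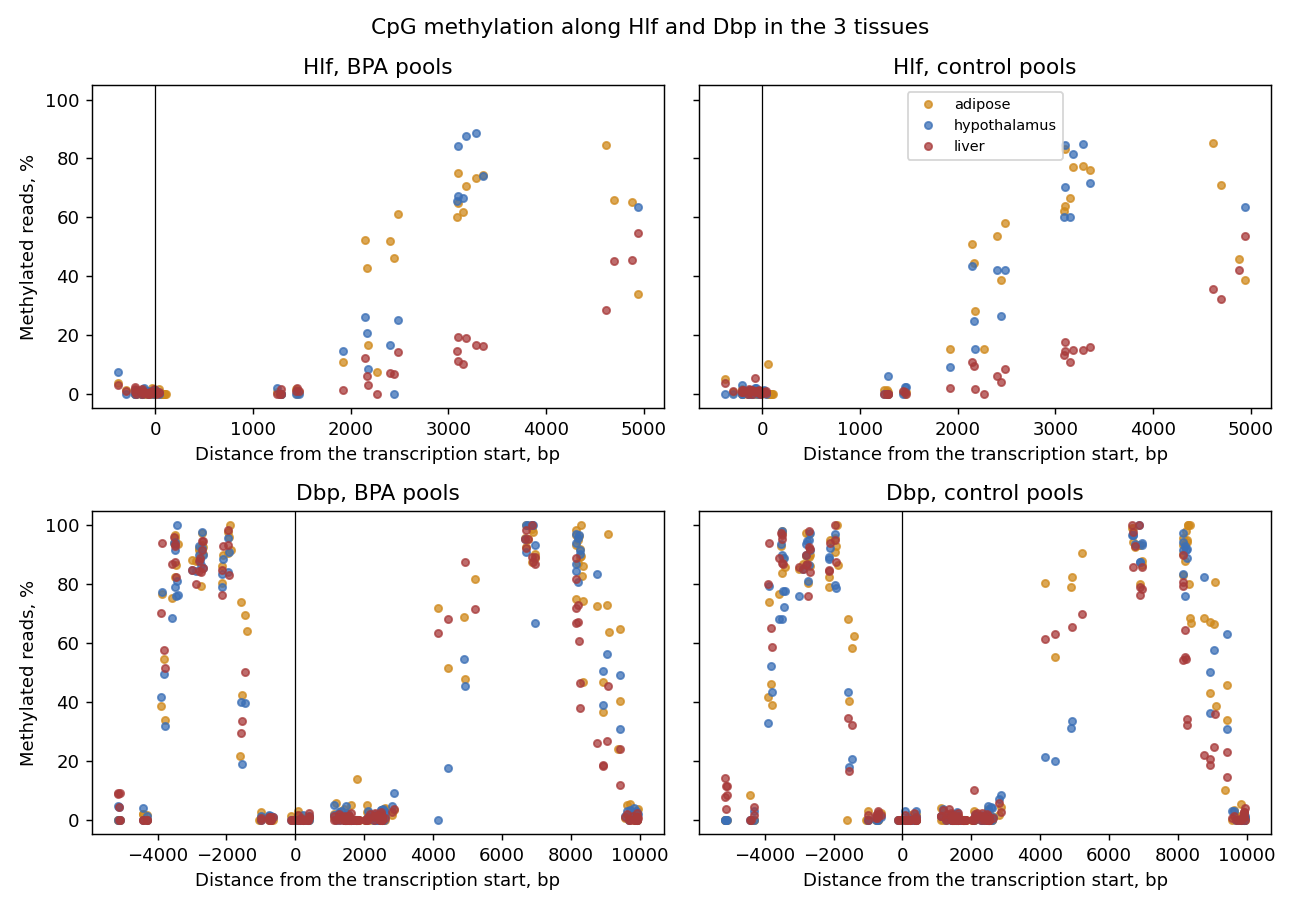
Methylation level in percent of reads along Hlf (top) and Dbp (bottom) against distance in bp from the transcription start, in BPA pools (left) and control pools (right), coloured by tissue. All tissues are near 0 around both starts, and liver stays under 20% in Hlf between 1926 and 3350 bp downstream in BPA and control pools.

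Of the 4 Dbp blocks, 3 lay outside the gene body. In the block at chr7:45713397-45714665, inside Sphk2 and around its 2 called BPA sites, liver was lowest, with 76.0% in BPA and 74.4% in control adipose, 72.3% in BPA and 72.5% in control hypothalamus, and 42.1% in BPA and 39.8% in control liver. At chr7:45714000 in this block the hypothalamus minus liver difference was 60.5 points in the control pools (52.8 to 66.8, Fisher's exact test, Benjamini-Hochberg adjusted p = 4.14e-40) and 57.5 points in the BPA pools. In the gene itself, the block at chr7:45709388-45710170 was lowest in hypothalamus, with 58.6% in BPA and 69.1% in control adipose, 16.7% in BPA and 23.3% in control hypothalamus, and 69.9% in BPA and 62.8% in control liver. The hypothalamus values there rest on few reads, 54 in the BPA pool and 73 in the control pool. The last CpG of this block, where Sphk2 overlaps Dbp, is a site called between the BPA and control adipose pools. On the other flank, inside Car11, a carbonic anhydrase related gene, liver was highest at chr7:45701354-45701749, with 69.8% in BPA and 71.2% in control adipose, 64.9% in BPA and 65.4% in control hypothalamus, and 79.8% in BPA and 83.3% in control liver. The Car11 block at chr7:45703315-45703782 was lowest in hypothalamus in summed reads, with 73.1% in BPA and 69.8% in control adipose, 48.3% in BPA and 49.3% in control hypothalamus, and 68.1% in BPA and 58.8% in control liver. No site of this block was called between hypothalamus and liver in BPA or control pools. The medians over its CpGs were close, at 39.8% in BPA and 32.0% in control hypothalamus and 41.7% in BPA and 33.2% in control liver. Liver was thus lowest in the flank inside Sphk2 and highest in a block inside Car11.

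Arntl was low in adipose in a block at chr7:113204784-113205194, upstream of the nearest start in the promoter table (positions -2681 to -2271 relative to it). Adipose had 47.1% in the BPA pool and 42.5% in the control pool, with 75.6% in BPA and 73.9% in control hypothalamus and 82.8% in BPA and 83.6% in control liver. At chr7:113205006 the adipose minus hypothalamus difference was -44.7 points in the control pools (-53.3 to -34.4, Fisher's exact test, Benjamini-Hochberg adjusted p = 7.48e-14) and -35.8 points in the BPA pools. A second block, at chr7:113208424-113208570, was low everywhere and slightly higher in adipose, at 6.00% in BPA and 8.37% in control, than in hypothalamus, at 2.29% in BPA and 1.55% in control, or liver, at 2.64% in BPA and 2.96% in control. A further block in the gene body (chr7:113227267-113227436) was highest in liver, with 64.9% in BPA and 61.9% in control adipose, 70.2% in BPA and 72.1% in control hypothalamus, and 89.8% in BPA and 89.1% in control liver.

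Among the repressors, Cry2 was most methylated in liver near the end of its gene body (chr2:92404942-92405078), with 47.0% in BPA and 41.8% in control adipose, 52.7% in BPA and 56.8% in control hypothalamus, and 85.1% in BPA and 84.3% in control liver. At chr2:92405062 the adipose minus liver difference was -52.9 points in the control pools (-62.6 to -41.0, Fisher's exact test, Benjamini-Hochberg adjusted p = 1.15e-14). In a flank block inside Mapk8ip1, a scaffold gene of neurons and endocrine cells (chr2:92400781-92400834), hypothalamus was lowest, with 22.0% in BPA and 23.7% in control adipose, 4.06% in BPA and 4.91% in control hypothalamus, and 30.8% in BPA and 32.9% in control liver. The block at chr2:92423554-92423771, which also overlaps D930015M05Rik, had 36.3% in BPA and 42.7% in control adipose, 31.4% in BPA and 23.6% in control hypothalamus, and 36.1% in BPA and 31.9% in control liver. In the BPA pools 0 of its 7 sites were called higher in adipose than in liver and 2 lower, against 5 higher and 0 lower in the control pools, by the same Fisher's exact test. The difference between the BPA and control pools in this tissue contrast was not tested over the block.

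Per2 and Per3 had 2 blocks each, and Per1 had none. In Per2, chr1:91437797-91437924 was highest in hypothalamus, with 63.0% in BPA and 55.6% in control adipose, 80.2% in BPA and 85.6% in control hypothalamus, and 46.1% in BPA and 44.1% in control liver. The site chr1:91437797 there had a hypothalamus minus liver difference of 60.7 points in the control pools (52.1 to 67.5, Fisher's exact test, Benjamini-Hochberg adjusted p = 3.81e-32). The other Per2 block (chr1:91457220-91457518), which overlaps Gm35591, was lowest in liver, with 76.9% in BPA and 77.2% in control adipose, 60.5% in BPA and 59.2% in control hypothalamus, and 35.3% in BPA and 41.9% in control liver. Its hypothalamus values rest on 38 reads in the BPA pool and 49 in the control pool. In Per3, chr4:151035156-151035498 was lowest in hypothalamus, with 89.7% in BPA and 92.5% in control adipose, 64.5% in BPA and 63.0% in control hypothalamus, and 92.7% in BPA and 91.0% in control liver. The other Per3 block (chr4:151033726-151033955) was instead highest in hypothalamus, at 93.4% in BPA and 93.9% in control. Adipose had 90.0% in BPA and 88.8% in control there, and liver 87.8% in BPA and 88.0% in control. Tef, with few methylated sites, had a flank block (chr15:81831515-81831769) that was highest in hypothalamus, with 1.83% in BPA and 1.37% in control adipose, 8.81% in BPA and 10.7% in control hypothalamus, and 1.75% in BPA and 1.54% in control liver.

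**Figure D5:**
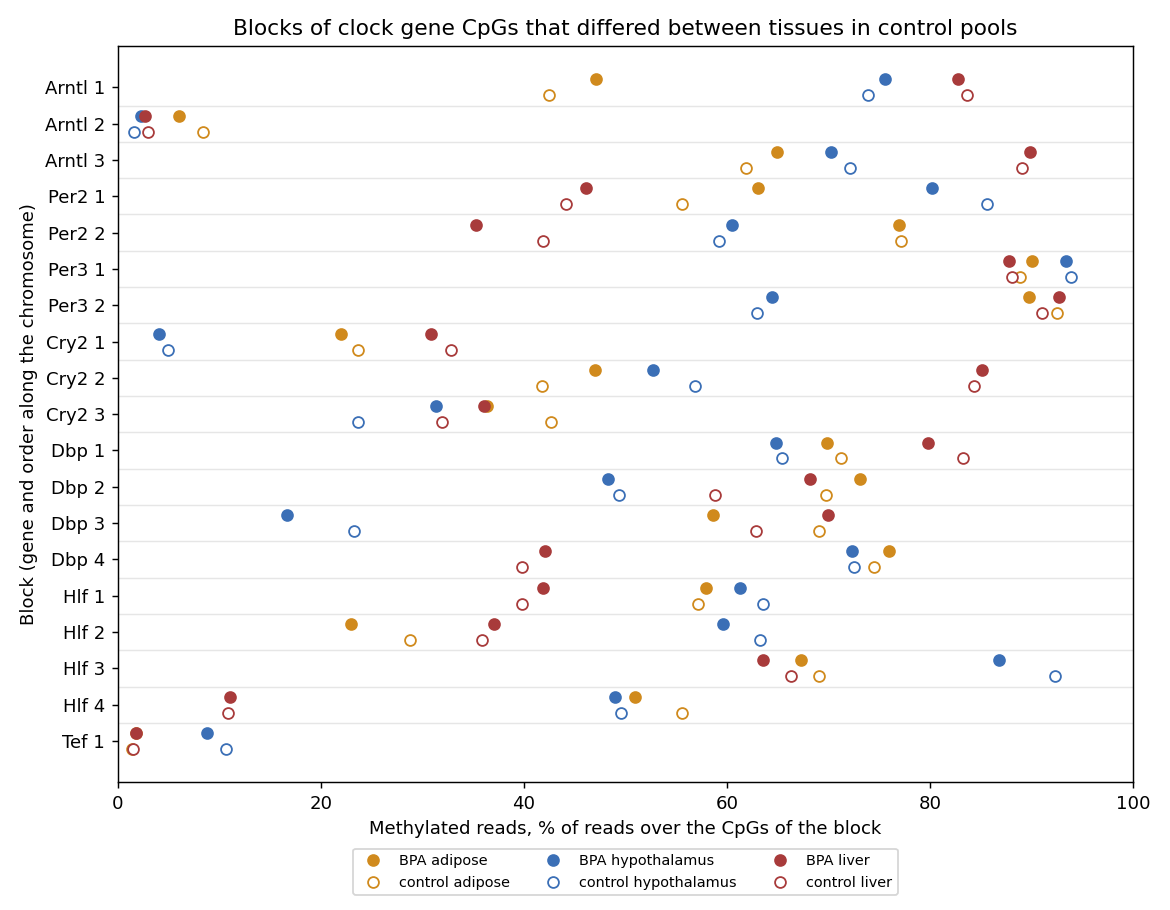
Methylated reads in percent over the CpGs of 19 blocks that differed between tissues in control pools, filled points for BPA pools and open points for control pools, blocks numbered along the chromosome within each gene. In the block Hlf 4 liver is at 11.1% (BPA) and 10.9% (control) and the other tissues lie between 48.9% and 55.6%.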

How the data were processed

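The 18 samples were 3 per treatment and tissue. The authors deposited 1 table per tissue with 2 pools, and per the file headers each row of 2 bp gives the deposited read count covering a CpG, the deposited methylated fraction and the deposited p-value of Fisher's exact test. The deposited credible difference (a score in the authors' own comparison) was used only as an alternative. Alignment used BSMAP to GRCm38 (mm10), per the submitters' processing notes, with a version not given in the sources used here. No value per sample was used (0 unused sample columns), and because each group is 1 pool no test measures the spread between animals.

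Methylated reads were recovered as count times fraction. Fisher's exact test was recomputed per site (two-sided), adjusted by Benjamini-Hochberg over nuclear CpGs with at least 10 reads in each pool, and called at adjusted p under 0.05 and 5 points. Sites had a median of 164 reads (BPA) and 144 reads (control) for adipose, 98 (BPA) and 93 (control) for hypothalamus, and 127 (BPA) and 136 (control) for liver. Tissues were compared the same way within control pools, and again within BPA pools. Differences of log odds ratios had 0.5 added per cell. The tests were also checked on simulated data. PCR reads are not independent molecules, and CpGs on 1 read are not independent. Gene positions and promoter windows came from RefSeq (GRCm38.p6). All 10 members are described; named sites are those called between BPA and control, the smallest p per gene and tissue, and the up to 3 largest called differences per gene and tissue pair. Blocks were chosen after their values were seen. The members and lists were chosen with earlier results of these data known. Alternatives were read minima of 5 and 20, difference minima of none and 10 points, division by the excess over counting error, omission of the deepest sites, narrower gene windows, the authors' credible difference and, chosen after seeing the data, their deposited Fisher p. Python 3.11.15, numpy 2.4.6, scipy 1.17.1, pandas 2.3.3 and numba 0.67.0 were used, with matplotlib 3.10.9 for figures.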

Additional observations from a re-analysis of the deposited data

How the results depend on the processing

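No paired analysis was possible because the tables hold 1 pool per treatment and tissue, and leaving out replicates was not run for the same reason. In adipose, 5 called clock gene sites became 3 with gene bodies alone or with 1 kb on either side, 0 with the statistic divided by the excess over counting error, and 18 by the authors' credible difference (56171 of all sites, 2.99%), which also gave 2 in hypothalamus (13458 of all, 0.858%) and 3 in liver (16209 of all, 0.995%) where Fisher's exact test gave 0 (38 and 24 at an unadjusted p under 0.05). The division left 39 of 10025 adipose sites, 51 of 90 hypothalamus sites and 222 of 419 liver sites over the whole tables, and 2 of 84, 15 of 93 and 8 of 102 clock gene sites between adipose and hypothalamus, adipose and liver, and hypothalamus and liver. Without the deepest sites the whole hypothalamus table had 12 calls, and without a minimum difference 329. The 5 called sites kept their direction and call under the read minima, the difference minima, the omission of the deepest sites and the deposited Fisher p. Of 67 named sites between tissues, 55 were called in the same direction in the BPA pools, 10 had the same direction without a call, and 2 reversed: Per1 chr11:69103932 at -2.87 points (adipose minus hypothalamus; 6.73 in control pools) and Per3 chr4:151008582 at 3.26 points (adipose minus liver; -23.7 in control pools). The Per3 site was also called between the BPA and control adipose pools, so its reversal uses the same adipose reads. The cause of the 2 reversals was not tested. Weighting each CpG equally moved 56 of 60 gene levels, by up to 14.4 points. The hypothalamus pools had the lowest median reads per site.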
